A study of Mus musculus with 6 samples.

Results

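The vascular side of the embryonic ureter was followed through 36 genes with a known role in endothelial cells, the cells that line blood and lymphatic vessels. The genes were listed by name and kept where at least 3 of the 6 samples held 10 or more counts. All 36 of 36 listed genes passed, out of 56748 identifiers in the count table. Ureters of E12.5 NMRI wildtype mouse embryos were explanted and cultured for 18 h on membranes, in medium with 15 mM LiCl or with water as the control, and the RNA of the whole explant was sequenced. Each group held 3 samples, and both groups shared strain, genotype, stage and culture time. LiCl inhibits the kinase GSK3B and thereby activates canonical WNT signaling. The labels do not say whether the samples came from separate cultures or how many ureters were pooled in one, so p-values measure the spread between these samples only. The question was whether the endothelial genes changed with LiCl and whether they did so together. A change in the share of endothelial cells would move genes made only by these cells by the same factor. Members that other cells also make need not follow that factor.

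Endothelial cells hold together by cadherin and claudin junctions and are specified by ETS and SOXF transcription factors. They read the signals of their neighbours through a small set of receptors. VEGF receptors drive sprouting, TIE receptors bind angiopoietins and stabilize vessels, ALK1 with endoglin binds circulating BMP9, and the apelin receptor and the adrenomedullin receptor steer vessel growth and lymphatic development. In the brain, canonical WNT signaling acts on endothelial cells directly, where it turns on barrier genes and turns off the gene of the fenestral diaphragm protein PLVAP.

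Promoter sequences of *Apln*, *Tek* and *Tie1* are shown because the first encodes the member with the largest increase, and the other two encode the paired TIE receptors that came apart. Each is the 250 bases before the first listed transcript start, on the coding strand, from RefSeq annotation of GRCm38.p6, a build older than that of the counts. Capitals mark the letters GGAAG or their complement CTTCC, a longer form of the GGAA core bound by ETS factors. They also mark CTTTGAT or CTTTGTT or their complements, the letters bound by TCF/LEF factors that carry canonical WNT signaling. GGAA followed by another letter, as in the *Tek* window, was neither marked nor counted.
Apln, chrX:48034854-48035103: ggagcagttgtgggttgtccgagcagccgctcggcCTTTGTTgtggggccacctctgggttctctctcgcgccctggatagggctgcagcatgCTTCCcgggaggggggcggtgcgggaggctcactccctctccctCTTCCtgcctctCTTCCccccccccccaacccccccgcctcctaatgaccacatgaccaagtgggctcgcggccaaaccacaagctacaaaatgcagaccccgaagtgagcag
Tek, chr4:94739039-94739288: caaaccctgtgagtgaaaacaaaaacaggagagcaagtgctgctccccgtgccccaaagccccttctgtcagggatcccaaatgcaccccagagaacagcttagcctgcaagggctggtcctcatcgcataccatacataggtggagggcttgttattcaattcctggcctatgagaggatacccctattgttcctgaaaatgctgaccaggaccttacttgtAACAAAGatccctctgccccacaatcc
Tie1, chr4:118489850-118490099: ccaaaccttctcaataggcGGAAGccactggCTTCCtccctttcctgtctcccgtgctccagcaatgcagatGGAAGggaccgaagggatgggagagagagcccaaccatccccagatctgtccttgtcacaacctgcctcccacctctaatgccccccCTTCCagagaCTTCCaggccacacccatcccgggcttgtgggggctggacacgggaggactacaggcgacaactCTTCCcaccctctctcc
The *Apln* window held 3 GGAAG matches and 1 TCF/LEF match, the *Tek* window 0 and 1, and the *Tie1* window 6 and 0. Promoters were found for 18 of the 36 genes. GGAAG or CTTCC was in 14 of these 18 windows (77.8%), against 63.6% of 27025 mouse promoters of the same length. The TCF/LEF letters were in 3 of 18 (16.7%), those of *Apln*, *Tek* and *Egfl7*, against 8.04% of all. The 3 genes with TCF/LEF letters had log2 fold changes of 1.82, -1.15 and -0.17, so the match did not go with one direction. A match is a description of the letters and not evidence of binding.

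Total counts lay between 28473436 and 31266945 per sample and overlapped between the groups. The deposited counts were tested with edgeR's quasi-likelihood test on 18188 genes that passed its filter on low counts, and every adjusted p below is the Benjamini-Hochberg value over all of them. Expression per sample is given as CPM, counts scaled to a common library size with TMM factors, and fold changes are LiCl over control on the log2 scale with their standard error. At an adjusted p under 0.05, 21.1% of all tested genes were higher after LiCl and 22.4% lower. Each count of a list below belongs beside these shares. Of 14 WNT target genes, 10 were higher and 3 lower (median 0.76), and all 12 cell cycle genes were higher (median 1.29). Of 16 urothelial genes, 12 were lower and 1 higher, and of 14 genes of the ureteric mesenchyme, 9 were lower and 2 higher. Skeletal muscle genes summed to 47.3 and 98.2 CPM in LiCl samples 1 and 3, against 13.3 to 15.9 in the others, and Y-linked genes were lowest in control sample 1. For one gene alone, the smallest p that an exact permutation test of these groups allows is 0.1.

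Among the 36 endothelial genes, 3 were higher and 13 lower after LiCl at an adjusted p under 0.05, and 20 did not pass. Of all tested genes, 21.1% were higher and 22.4% lower by the same rule. The median log2 fold change of the members was -0.19, against -0.01 over all tested genes, with 11 values above 0 and 25 below. The changes beyond 2-fold were an increase of *Apln* and *Lyve1* and a reduction of *Aplnr* and *Tek*, that is 2 of 36 in each direction, where all tested genes had 2.74% higher and 4.59% lower. The other 11 genes with reduced expression lay between -0.23 and -0.80. The 3 LiCl samples were all above the 3 controls for 4 members and all below for 14, or 11.1% and 38.9%, against 26.4% and 27.8% of all genes. In this RNA from whole explants, a smaller share of endothelial cells and less RNA of a reduced gene per cell cannot be told apart. Expression of these genes by other cells was not separated either.

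**Figure D1:**
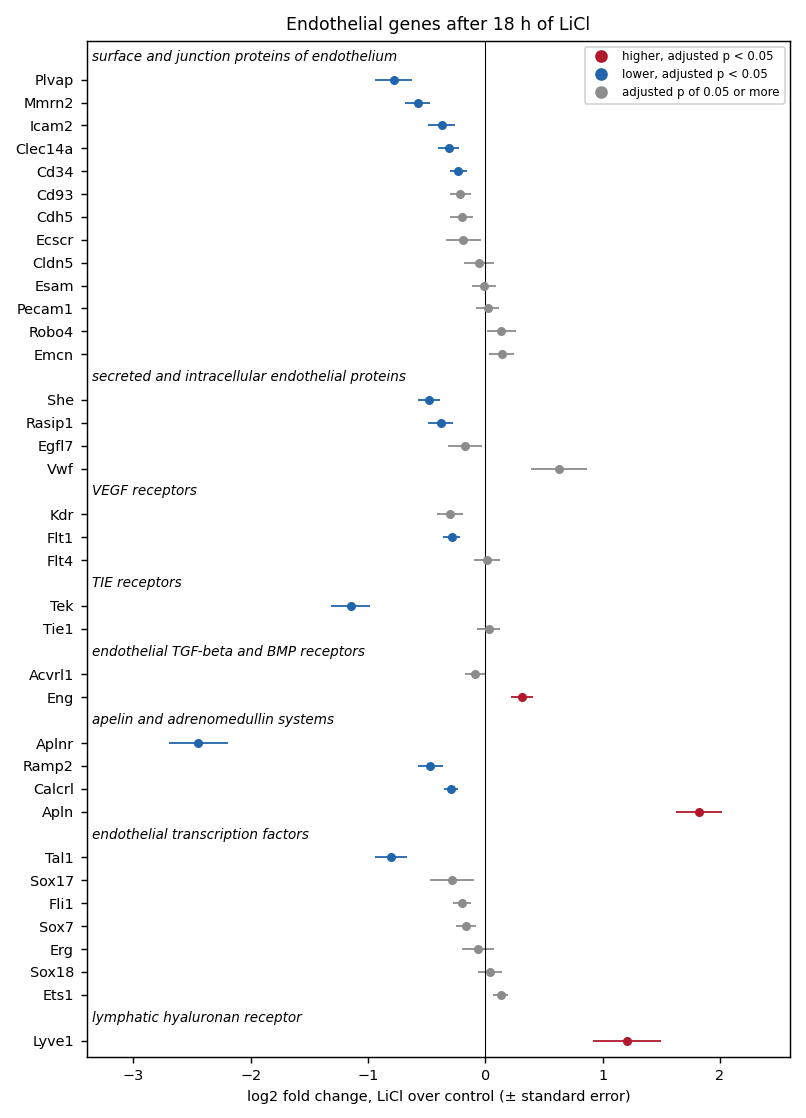
Log2 fold change of LiCl over control (horizontal axis) for each of the 36 endothelial genes, grouped by role, with bars for ± 1 standard error (n = 3 per group) and colour for the edgeR call. The 20 grey genes lie between -0.30 (*Kdr*) and 0.63 (*Vwf*), whereas *Aplnr* (-2.45) and *Tek* (-1.15) lie far to the left and *Apln* (1.82) and *Lyve1* (1.21) far to the right.

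Expression levels between genes were compared by FPKM, which is per length of transcript. In control, *Cdh5* was highest at 34.5 ± 4.19 FPKM (SD, n = 3), followed by *Cldn5* at 24.4 ± 4.61 and *Cd93* at 21.8 ± 2.58. Every control sample had more *Cdh5* than any had *Cldn5*, whereas the ranges of *Cldn5* and *Cd93* overlapped. *Kdr*, *Sox7*, *Tie1*, *Sox18* and *Pecam1* followed with means between 17.9 and 15.6 FPKM, and each overlapped with its neighbours in this order. The median member had 5.93 FPKM, and 34 of 36 had at least 1. *Lyve1* at 0.486 ± 0.108 FPKM and *Vwf* at 0.0724 ± 0.0126 FPKM were the lowest. The defining markers of endothelium, such as *Pecam1*, *Cdh5*, *Kdr* and *Tie1*, were present in all 6 samples. The 11 members with the highest control FPKM, down to *Esam* at 10.1 FPKM, all missed the threshold, with log2 fold changes from -0.30 to 0.13. All 16 members that passed were among the other 25. This split by level was looked for after the values were seen, and it depends on the fit, since *Cdh5*, *Cd93*, *Kdr* and *Ets1* among the 11 each passed when some single sample was left out.

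The junction and surface proteins came first by role. *Pecam1*, the adhesion molecule PECAM1 of endothelial contacts, had 87.3, 97.8 and 109 CPM in the controls and 89.9, 96.7 and 111 CPM after LiCl. The groups lay on top of each other, with a log2 fold change of 0.02 ± 0.09 (adjusted p = 0.89). *Cdh5*, which encodes VE-cadherin, had 135, 138 and 167 CPM in control and 116, 122 and 144 CPM after LiCl. Control sample 3 and LiCl sample 3 were each the highest of their group, the groups overlapped, and the change of -0.20 ± 0.10 missed the threshold (adjusted p = 0.13), but passed without LiCl sample 3 (adjusted p = 0.047). *Esam*, *Cldn5*, *Emcn*, *Cd93*, *Ecscr* and *Robo4*, which encode further proteins of junctions and cell surface, also missed it with overlapping groups. Their log2 fold changes ranged from -0.21 for *Cd93*, which passed without control sample 2 (adjusted p = 0.018), to 0.14 for *Emcn*.

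Expression of 5 of the 13 surface and junction genes was reduced. *Plvap*, which encodes the protein of endothelial diaphragms, had 14.1, 21.5 and 20.7 CPM in control and 10.4, 10.1 and 12.3 CPM after LiCl. All treated samples lay below all controls, at a log2 fold change of -0.78 ± 0.16 (adjusted p = 0.0035). *Mmrn2*, an extracellular matrix protein of vessels that binds CD93 and CLEC14A, had 21.7, 22.7 and 25.8 CPM in control and 15.2, 13.9 and 18.1 CPM after LiCl. Again no values overlapped, and the change was -0.57 ± 0.11 (adjusted p = 0.0022). The genes of both binding partners had smaller values, -0.21 ± 0.09 for *Cd93* (adjusted p = 0.089) and -0.31 ± 0.09 for *Clec14a* (adjusted p = 0.02). *Clec14a* had 27.3, 22.7 and 27.6 CPM in control against 21.1, 22.2 and 19.3 CPM. *Icam2*, an adhesion molecule for leukocytes, had 15.6, 18.6 and 20.5 CPM in control and 13.5, 13.1 and 15.6 CPM after LiCl. *Cd34*, a sialomucin that other progenitor and mesenchymal cells also carry, had 35.2, 40.5 and 40.1 CPM in control and 32.7, 31.2 and 34.8 CPM after LiCl. For both, the groups lay close but apart, with changes of -0.37 ± 0.11 (adjusted p = 0.025) and -0.23 ± 0.07 (adjusted p = 0.027). Leaving out any of control samples 2 and 3 or LiCl samples 1 and 2 cost *Icam2* (adjusted p up to 0.11) and *Cd34* (adjusted p up to 0.11) the call, and *Clec14a* was lost without control sample 1 or 3 or LiCl sample 3 (adjusted p up to 0.084).

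Of the genes for secreted and intracellular proteins, *She* and *Rasip1* had reduced expression. *She*, which encodes an SH2-domain adaptor, had 32.1, 36.6 and 38.9 CPM in control and 23.3, 25.1 and 28.9 CPM after LiCl. The groups did not overlap, at a log2 fold change of -0.48 ± 0.10 (adjusted p = 0.0033). *Rasip1*, a RAS-interacting protein needed for vessel lumens, had 16.7, 16.7 and 20.4 CPM in control and 14.6, 12.2 and 14.5 CPM after LiCl. Its change of -0.38 ± 0.11 (adjusted p = 0.018) missed the threshold without control sample 3 (adjusted p = 0.08) or LiCl sample 2 (adjusted p = 0.059). *Egfl7*, a secreted matrix protein of endothelium, had overlapping groups at -0.17 ± 0.14 (adjusted p = 0.36). *Vwf*, the blood clotting factor made by endothelium and megakaryocytes, had only 1.39, 0.966 and 1.17 CPM in control and 1.58, 1.65 and 2.23 CPM after LiCl. The treated samples were all above the controls, and the change of 0.63 ± 0.24 missed the threshold (adjusted p = 0.058).

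**Figure D2:**
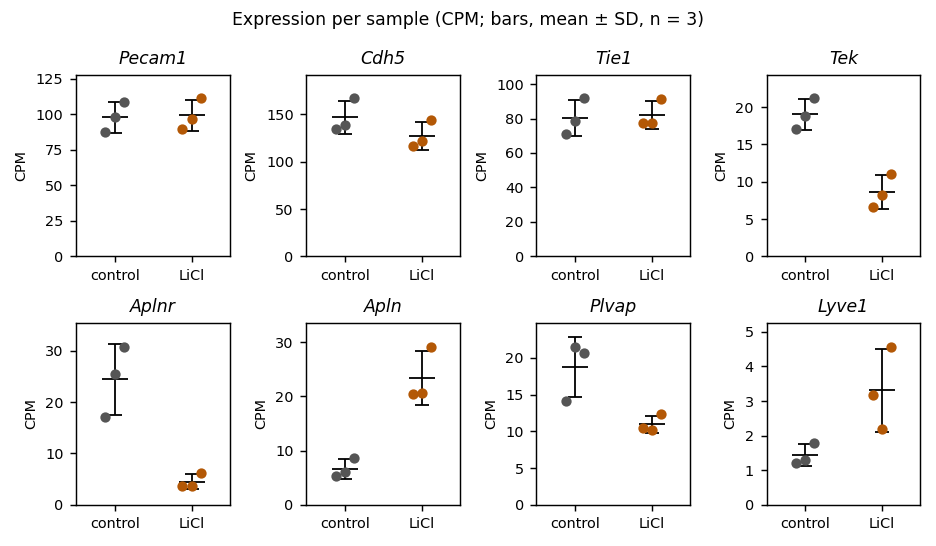
CPM (vertical axes, each from 0) of 8 endothelial genes in every sample, with the mean ± SD of 3 samples per group. The groups coincide for *Pecam1* and *Tie1*, overlap for *Cdh5*, and are apart for *Tek*, *Aplnr*, *Apln*, *Plvap* and *Lyve1*.

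The VEGF receptors showed small values. *Kdr*, the main receptor of VEGFA, had 152, 148 and 190 CPM in control and 119, 127 and 152 CPM after LiCl. The highest treated sample reached the level of the lower controls, and the change of -0.30 ± 0.11 just missed the threshold (adjusted p = 0.052). It passed without LiCl sample 3 (adjusted p = 0.022) or control sample 2 (adjusted p = 0.043), and also with DESeq2. *Flt1*, the high-affinity receptor that mostly traps VEGFA, had 27.5, 27.7 and 29.6 CPM in control and 21.3, 23.3 and 24.9 CPM after LiCl. All treated samples were below all controls, at -0.29 ± 0.07 (adjusted p = 0.01), and without control sample 3 the adjusted p was 0.052. *Flt4*, the receptor of VEGFC on lymphatic and sprouting endothelium, had values between 22.7 and 29.8 CPM in all 6 samples and a change of 0.01 ± 0.11 (adjusted p = 0.93).

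The ligands and coreceptors of these receptors are made in part by other cells of the explant. Of 7 listed, 3 were higher and 3 lower (42.9% each), where 21.1% of all tested genes were higher and 22.4% lower. *Vegfc* and *Vegfd*, which encode the ligands of FLT4, were both reduced, from 19.2, 19.1 and 19.0 CPM to 10.4, 11.3 and 10.9 CPM for *Vegfc* (-0.81 ± 0.07, adjusted p = 3.8e-05). *Vegfd* fell from 16.7, 17.1 and 18.0 CPM to 9.36, 6.52 and 7.87 CPM (-1.12 ± 0.12, adjusted p = 0.00013). These 2 ligand genes thus changed in samples in which the values of *Flt4* overlapped. *Vegfa* had 0.09 ± 0.09 (adjusted p = 0.43). *Vegfb* and *Pgf*, both coding for ligands of FLT1, were slightly higher (both 0.24 ± 0.07, adjusted p = 0.02 and 0.017). Of the neuropilins, which serve as coreceptors, *Nrp1* was reduced (-0.33 ± 0.07, adjusted p = 0.0054), and *Nrp2* was increased (0.32 ± 0.10, adjusted p = 0.034) with overlapping groups. None of these 3 increases passed in every fit that left out a sample. *Vegfb* was lost without control sample 1 or 3 or LiCl sample 1 (adjusted p up to 0.073), *Pgf* without control sample 1 or LiCl sample 3 (adjusted p up to 0.073), and *Nrp2* without control sample 1 or 2 or LiCl sample 2 or 3 (adjusted p up to 0.12).

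The TIE receptors diverged. *Tek* (ENSMUSG00000006386), which encodes the angiopoietin receptor TIE2, had 17.1, 18.8 and 21.2 CPM in control and 6.56, 8.20 and 11 CPM after LiCl. The groups were far apart, at a log2 fold change of -1.15 ± 0.17 or 2.22-fold lower (adjusted p = 0.00061). *Tie1* (ENSMUSG00000033191), which encodes the partner that forms complexes with TIE2, had 71.2, 78.3 and 91.7 CPM in control and 77.4, 77.4 and 91.5 CPM after LiCl. Here the groups coincided, at 0.03 ± 0.10 (adjusted p = 0.83). Per length, *Tie1* was expressed at 16.2 ± 2.15 FPKM in control and *Tek* at 3.99 ± 0.447 FPKM, and the latter had 1.83 ± 0.484 FPKM after LiCl.

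Of 7 genes of angiopoietins and TIE regulators, 6 were reduced (85.7%) and the other did not pass, where 22.4% of all tested genes were lower. *Angpt1*, coding for the TIE2 agonist made by perivascular and mesenchymal cells, fell from 20.1, 18.7 and 20.4 CPM to 9.46, 9.16 and 9.58 CPM (-1.07 ± 0.08, adjusted p = 1.1e-05). *Angpt2*, coding for the context-dependent antagonist made by endothelial tip cells and some mesenchyme, fell from 22.4, 23.6 and 24.1 CPM to 7.63, 7.70 and 8.97 CPM (-1.53 ± 0.09, adjusted p = 2.5e-06). The replicates of both genes were close to each other, and the distance between the groups was several times the spread within them. *Angpt4* was low, at 0.939 to 1.19 CPM in control and 0.354 to 0.603 CPM after LiCl (-1.12 ± 0.29, adjusted p = 0.012). *Ptprb*, the endothelial phosphatase that acts on TIE2 and VE-cadherin, had -0.99 ± 0.12 (adjusted p = 0.00019). *Svep1*, a matrix protein that binds TIE1, had -0.86 ± 0.19 (adjusted p = 0.0062). *Angptl2*, a related secreted protein that does not signal through TIE2, was slightly reduced (-0.19 ± 0.05, adjusted p = 0.015) but not without control sample 3 or LiCl sample 3 (adjusted p up to 0.085), and *Angptl4* had -0.15 ± 0.06 (adjusted p = 0.069).

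**Figure D3:**
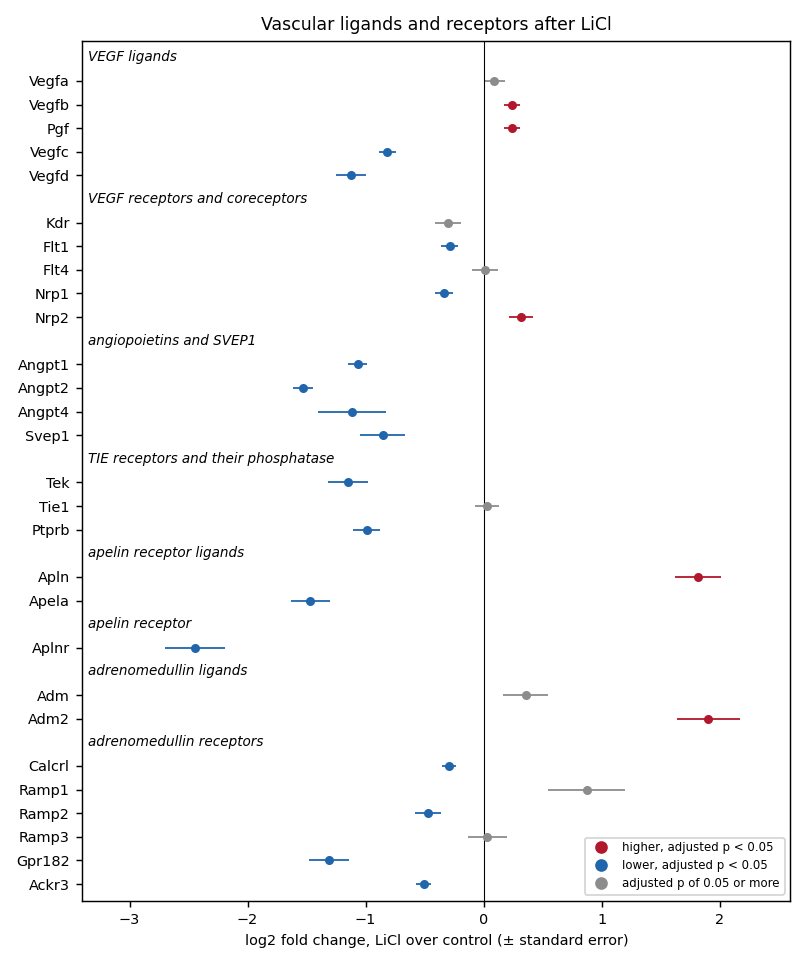
Log2 fold change of LiCl over control (horizontal axis, bars for ± 1 standard error, n = 3 per group) for ligands and receptors of vascular signaling, coloured by the edgeR call. *Tie1* lies at 0.03 while *Tek*, *Ptprb* and 4 ligand genes of the TIE system lie between -0.86 and -1.53, and *Apln* (1.82) lies opposite to *Aplnr* (-2.45) and *Apela* (-1.47).

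The largest changes among the members were those of the apelin system. *Aplnr* (ENSMUSG00000044338), which encodes the apelin receptor of venous and sprouting endothelium, had 17.1, 25.4 and 30.8 CPM in control and 3.60, 3.72 and 6.17 CPM after LiCl. Every treated sample was far below every control, at -2.45 ± 0.25 or 5.45-fold lower (adjusted p = 8.2e-05). *Apln* (ENSMUSG00000037010), which encodes the ligand apelin and is a tip cell gene in other vessels, had 5.22, 6.02 and 8.62 CPM in control and 20.4, 20.7 and 29.2 CPM after LiCl. It went in the opposite direction with no overlap, at 1.82 ± 0.20 or 3.53-fold higher (adjusted p = 0.00011). Its promoter window is the one above with 3 GGAAG matches and 1 TCF/LEF match. In both groups the third sample was the highest for the ligand and for the receptor. *Apela*, which encodes the other ligand of the receptor, fell from 9.53, 7.70 and 7.54 CPM to 3.57, 2.86 and 2.48 CPM (-1.47 ± 0.16, adjusted p = 0.00014), so the genes of both ligands moved in opposite directions. In FPKM, *Aplnr* went from 6.55 ± 1.87 to 1.22 ± 0.395 and *Apln* from 2.08 ± 0.563 to 7.44 ± 1.61.

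The adrenomedullin receptor is formed by CALCRL with RAMP2. *Ramp2* had 17.2, 21.2 and 21.0 CPM in control and 15.7, 12.7 and 14.4 CPM after LiCl, and *Calcrl* had 41.9, 39.7 and 37.5 CPM in control and 31.1, 33.3 and 32.9 CPM. Both were reduced with no overlap, at -0.47 ± 0.11 (adjusted p = 0.0068) and -0.29 ± 0.06 (adjusted p = 0.0041). *Calcrl* was one of the few members that was not highest in the third sample of its group. *Ackr3*, a scavenger receptor of adrenomedullin and CXCL12, was reduced from 148, 159 and 143 CPM to 101, 113 and 103 CPM (-0.51 ± 0.06, adjusted p = 0.00019). *Gpr182*, a scavenger receptor of chemokines in endothelium once assigned to adrenomedullin, was reduced from 2.99, 3.35 and 3.07 CPM to 1.22, 1.29 and 1.28 CPM (-1.31 ± 0.17, adjusted p = 0.0003). *Adm2*, a further ligand, was increased from at most 0.489 CPM in control to at least 1.36 CPM (1.90 ± 0.26, adjusted p = 0.00045). *Adm* (0.36 ± 0.19, adjusted p = 0.16), *Ramp1* (0.87 ± 0.33, adjusted p = 0.055) and *Ramp3* (0.03 ± 0.16, adjusted p = 0.89) missed the threshold at low levels.

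The receptors of BMP9 had values on both sides of 0, and the difference between them was not tested. *Eng*, which encodes the coreceptor endoglin, had 22.5, 23.5 and 26.9 CPM in control and 27.6, 29.2 and 33.8 CPM after LiCl. Its increase of 0.31 ± 0.09 (adjusted p = 0.023) separated the groups by a narrow gap and was lost without control sample 1 (adjusted p = 0.076), control sample 2 (adjusted p = 0.067) or LiCl sample 3 (adjusted p = 0.088). *Acvrl1*, which encodes ALK1, had values between 20.8 and 25.6 CPM in all samples (-0.09 ± 0.09, adjusted p = 0.43). Of 10 tested partners of this pathway, 7 did not pass and 3 were lower (30%), where 22.4% of all tested genes were lower. The 3 were the SMAD genes *Smad6* (-0.26 ± 0.06), *Smad1* (-0.23 ± 0.05) and *Smad9* (-0.22 ± 0.06), which most cells of the explant can express. *Smad9* was lost without control sample 1 or LiCl sample 3 (adjusted p up to 0.066).

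Of the 7 transcription factor genes, 1 was reduced. *Tal1*, a factor of blood and endothelial progenitors, had 9.08, 10.7 and 11.1 CPM in control and 5.05, 6.66 and 5.99 CPM after LiCl. The groups were clearly apart, at -0.80 ± 0.13 (adjusted p = 0.0012). The SOXF genes *Sox7*, *Sox17* and *Sox18*, which specify endothelial and arterial fate, had -0.16 ± 0.08 (adjusted p = 0.14), -0.29 ± 0.18 (adjusted p = 0.24) and 0.04 ± 0.10 (adjusted p = 0.8). All 3 had overlapping groups. Of the ETS factors, *Erg* had -0.06 ± 0.13 (adjusted p = 0.73) and *Ets1*, which is not restricted to endothelium, had 0.13 ± 0.06 (adjusted p = 0.13). *Fli1* had 24.8, 25.4 and 27.1 CPM in control and 20.9, 21.9 and 24.6 CPM after LiCl. Its groups did not overlap, and the change of -0.20 ± 0.08 missed the threshold (adjusted p = 0.058). Without LiCl sample 3 the adjusted p of *Fli1* was 0.032, and without LiCl sample 1 that of *Ets1* was 0.033.

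*Lyve1* encodes a hyaluronan receptor of lymphatic endothelium that tissue macrophages also carry. It had 1.22, 1.29 and 1.79 CPM in control and 3.19, 2.18 and 4.58 CPM after LiCl. The treated samples were all higher but varied more among themselves than the controls, and the change was 1.21 ± 0.29 or 2.31-fold (adjusted p = 0.0084). Of 8 further lymphatic markers, 1 was higher, 3 were lower and 4 did not pass. The 4 were *Prox1* (0.15 ± 0.12, adjusted p = 0.35), *Pdpn* (-0.19 ± 0.09, adjusted p = 0.12), *Reln* (0.11 ± 0.25, adjusted p = 0.74) and *Ccl21a* (-0.19 ± 0.47, adjusted p = 0.77). The one that rose was *Mmrn1*, a matrix protein of lymphatic endothelium and platelets, from 17.8, 19.0 and 17.9 CPM to 23.2, 24.4 and 33.3 CPM (0.56 ± 0.13, adjusted p = 0.0061). *Itga9* (-0.33 ± 0.08), *Nr2f2* (-0.16 ± 0.04) and *Foxc2* (-0.14 ± 0.05), which mesenchymal cells express too, were lower. *Nr2f2* was lost without control sample 3 or LiCl sample 3 (adjusted p up to 0.074), and *Foxc2* without control sample 2 or 3 or LiCl sample 2 or 3 (adjusted p up to 0.19).

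Whether the members moved together was read first within the groups, where no treatment differs. Control sample 3 had the highest value of its group for 31 of 36 members, and LiCl sample 3 did so likewise for 31 of 36, where 27.4% and 28.3% of all tested genes were highest in these samples. In control samples 1, 2 and 3, 5, 16 and 35 members lay above their group mean. In LiCl samples 1, 2 and 3 the numbers were 6, 7 and 35. The mean deviation was -0.15, -0.02 and 0.17 on the log2 scale in control and -0.10, -0.08 and 0.18 after LiCl. The endothelial genes thus rose and fell together between samples of the same group. When each member was read relative to the mean of the other members, its median SD within groups dropped from 0.167 to 0.10, and it was smaller for 29 of 36 members. The same step raised the median SD of all tested genes from 0.119 to 0.202. The list of 36 other endothelial genes had 6, 16 and 32 genes above the group mean in control and 9, 10 and 32 after LiCl. Macrophage genes followed the same samples, with 18 of 19 above the mean in the third sample of each group, and their summed expression was 160, 181 and 240 CPM in control and 134, 132 and 175 CPM after LiCl. Of the 20 macrophage genes listed, 19 were tested. The part of macrophages in the result was not tested.

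**Figure D4:**
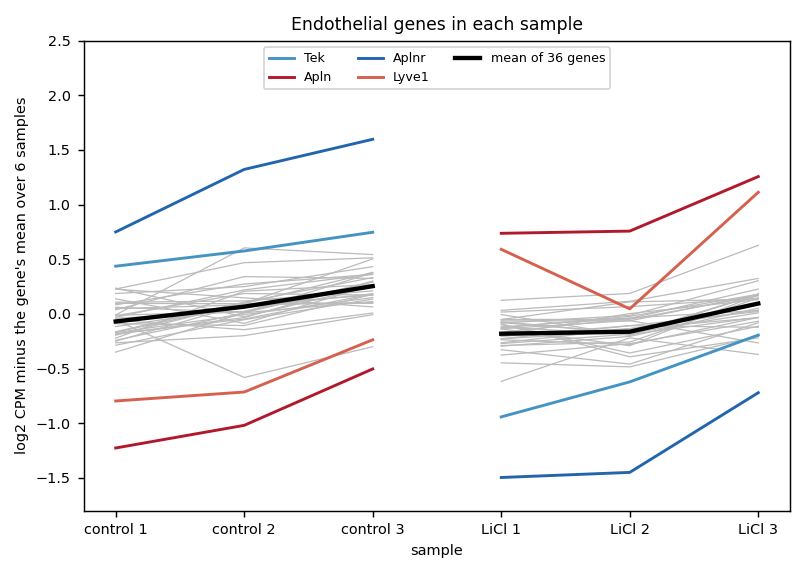
Log2 CPM of each of the 36 endothelial genes minus its mean over the 6 samples (vertical axis), by sample, with grey lines joining one gene within a group, 4 genes in colour and the mean of all in black. The samples have no order within a group. The third sample of each group is high for nearly all genes at once, while between the groups *Apln* and *Lyve1* move up and *Aplnr* and *Tek* move down against the others.

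Between the groups, not all members followed one shift. The SD of the 36 log2 fold changes was 0.65, against a median standard error of 0.11. This SD rests largely on the members farthest from the mean of the 36 log2 fold changes. These were *Aplnr* (-2.28 from that mean), *Apln* (1.99), *Lyve1* (1.37) and *Tek* (-0.98). Summed over the members, expression was 1342, 1413 and 1629 CPM in control and 1223, 1268 and 1459 CPM after LiCl, and the groups overlapped. The counts were then fitted relative to the mean log2 CPM of the members in each sample, so that a gene which only followed the shared shift would have a fold change near 0. In this fit 4 members were higher and 4 lower at an adjusted p under 0.05, where 17.0% of all tested genes were higher and 7.94% lower, and 28 members were not told apart from the shared shift. The higher ones were *Apln* (1.99 ± 0.19), *Lyve1* (1.36 ± 0.27), *Eng* (0.48 ± 0.17) and *Vwf* (0.78 ± 0.31). *Vwf* was at the threshold and passed in only 1 of the 6 fits that left out a sample, the one without control sample 1 (adjusted p up to 0.22 in the others), and *Eng* was lost without control sample 2 or LiCl sample 1 or 2 (adjusted p up to 0.13). The lower ones were *Aplnr* (-2.27 ± 0.19), *Tek* (-0.99 ± 0.18), *Tal1* (-0.63 ± 0.20) and *Plvap* (-0.61 ± 0.18). *Plvap* was lost without control sample 2 (adjusted p = 0.15), and *Tal1* without control sample 2 (adjusted p = 0.081) or LiCl sample 1. In this fit the other tested genes carry the sample-to-sample variation of the reference, which widens the standard errors that are estimated across all genes. On simulated data the same fit also called some members that had not departed from the shared shift. With the within-group variation of the members as a covariate, an alternative chosen after the data were seen, 10 members were higher and 7 lower than their shared shift, and with the mean of the other endothelial genes as the reference 17 were higher and 2 lower. *Aplnr*, *Tek*, *Apln* and *Lyve1* stood apart from the shared shift in each of these fits.

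A second list held 38 other endothelial genes, of which 36 were tested. Of these, 1 was higher, 17 were lower (47.2%) and 18 did not pass, with a median of -0.30. The shares over all tested genes were 21.1% higher and 22.4% lower. Without control sample 3 the number of reduced genes in this list was 10. *Stab2*, a scavenger receptor of sinusoidal endothelium, fell from 5.08, 6.57 and 8.09 CPM to 0.579, 0.931 and 0.993 CPM (-2.98 ± 0.25, adjusted p = 2.5e-05). *Exoc3l2*, an exocyst-related gene of sprouting vessels, fell from 1.18, 1.77 and 1.37 CPM to 0.225, 0.322 and 0.177 CPM (-2.56 ± 0.32, adjusted p = 0.00028). *Gpihbp1*, which carries lipoprotein lipase to the capillary surface, fell from 4.21, 6.76 and 6.43 CPM to 2.06, 1.61 and 1.77 CPM (-1.67 ± 0.21, adjusted p = 0.00027). In each of the 3 genes the groups were far apart. *Afap1l1*, an actin-associated protein of vessels, was the one that rose, from 33.0, 33.9 and 37.4 CPM to 46.7, 45.2 and 49.5 CPM (0.44 ± 0.06, adjusted p = 0.00061).

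The arterial and tip cell genes that passed were reduced. Of 12 arterial markers, 8 were lower (66.7%) and 4 did not pass, with a median of -0.34, where 22.4% of all tested genes were lower. The 4 were *Dll4* (-0.03 ± 0.08, adjusted p = 0.77), *Notch4* (0.01 ± 0.07, adjusted p = 0.94), *Jag1* (-0.21 ± 0.10, adjusted p = 0.12) and *Cxcr4* (0.18 ± 0.07, adjusted p = 0.082). *Gja5*, which encodes connexin 40 of arterial endothelium, fell from 13.2, 19.1 and 16.1 CPM to 4.54, 5.58 and 4.61 CPM (-1.72 ± 0.15, adjusted p = 3.4e-05). The NOTCH effector genes *Hey2* (-0.60 ± 0.11) and *Hey1* (-0.59 ± 0.09) and the netrin receptor gene *Unc5b* (-0.47 ± 0.05), which other cells of the ureter can express too, were also reduced. Of 3 venous markers, *Nr2f2* (-0.16 ± 0.04) and *Ephb4* (-0.14 ± 0.05) were lower by small amounts, and *Nrp2* was higher. *Ephb4* passed the threshold in only 1 of the 6 fits that left out a sample, the one without control sample 2 (adjusted p up to 0.16 in the others), and *Nr2f2* and *Nrp2* were lost as described above. Of 10 tip cell genes, 4 were lower (40%) and 6 did not pass, with a median of -0.13, where 22.4% of all tested genes were lower. The lower ones were *Angpt2*, *Kcne3* (-0.90 ± 0.21), *Unc5b* and *Esm1* (-0.46 ± 0.08). Those that did not pass were *Adm* (0.36 ± 0.19), *Igfbp3* (0.25 ± 0.09, adjusted p = 0.055), *Cxcr4* (0.18 ± 0.07), *Pdgfb* (0.03 ± 0.10), *Dll4* (-0.03 ± 0.08) and *Plaur* (-0.23 ± 0.14). *Apln*, which is assigned to tip cells as well, rose. The lists share genes with each other, so their counts are not independent.

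Of 20 tested genes tied to WNT-dependent barrier endothelium, 6 were higher (30%) and 7 lower (35%), with a median of -0.12. The shares over all tested genes were 21.1% higher and 22.4% lower. Those that rose most were general WNT targets or receptors not restricted to endothelium, *Tnfrsf19* (2.16 ± 0.06), *Axin2* (0.92 ± 0.05), *Apcdd1* (0.61 ± 0.06) and *Lef1* (0.49 ± 0.08). Those reduced most were *Foxq1* (-3.24 ± 0.17), a transcription factor gene that epithelial cells express too, the efflux transporter gene *Abcb1a* (-1.33 ± 0.28), the lipid transporter gene *Mfsd2a* (-0.94 ± 0.22) and *Plvap*. *Cldn5*, the tight junction gene of the barrier, had 28.7, 34.2 and 41.6 CPM in control and 29.7, 34.0 and 37.2 CPM after LiCl. Its groups overlapped, at -0.05 ± 0.13 (adjusted p = 0.77).

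**Figure D5:**
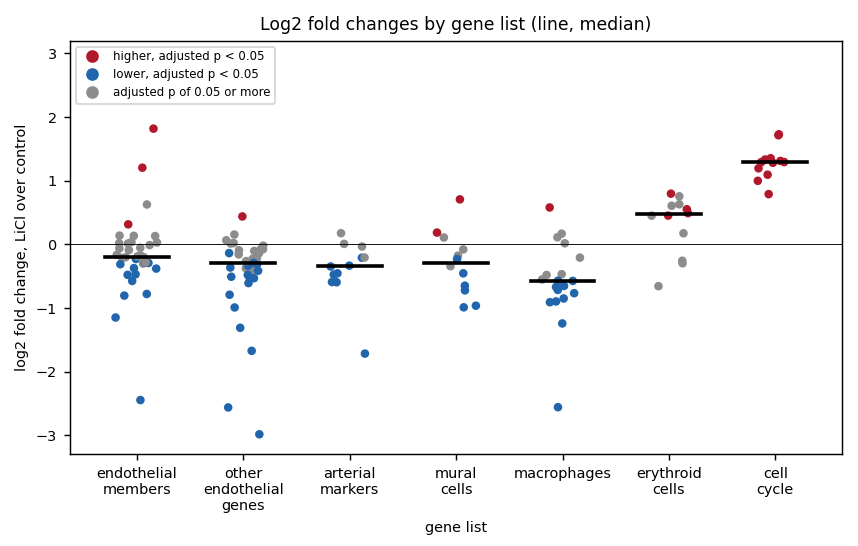
Log2 fold change of LiCl over control (vertical axis) for single genes of 7 lists, coloured by the edgeR call, with a black line at the median of each list. Medians lie at -0.19 for the endothelial members, -0.30 for other endothelial genes, -0.34 for arterial markers and 1.29 for cell cycle genes, and *Apln* and *Aplnr* are the outermost points of the first list.

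Of the 16 members that passed the threshold, 10 also passed it in each of the 6 fits that left out one sample, namely *Aplnr*, *Apln*, *Tek*, *Lyve1*, *Plvap*, *Mmrn2*, *She*, *Ramp2*, *Calcrl* and *Tal1*. The number of reduced members was 8 without control sample 3 and 15 without LiCl sample 3, the samples in which the endothelial genes were highest. The median log2 fold change of the members was -0.075 and -0.26 in these fits.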

How the data were processed

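RNA of whole E12.5 ureter explants, 3 treated with LiCl and 3 with water, was analysed after poly-A selection and stranded library preparation. The authors deposited raw counts per Ensembl gene, not normalized, and FPKM values per sample. The paper names HISAT2 and featureCounts on GRCm39, whereas the submitters' processing notes list fastp 0.23, STAR 2.7, featureCounts 2.0 and DESeq2 1.40. Which aligner made the counts, the annotation release and the strand setting are not given in the sources used here, so genes that overlap others are uncertain. Symbols came from GENCODE vM21, made for GRCm38, and covered 52073 of 56748 identifiers. The other identifiers held 0.191% of the counts. All 6 count columns were used.

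The deposited counts were filtered with filterByExpr, scaled with TMM and fitted with the quasi-likelihood model of edgeR 4.0.16 (R 4.3.3), with all 6 samples and no covariate, and p-values were adjusted after Benjamini-Hochberg. TMM factors lay between 0.982 and 1.03, and the common dispersion was 0.0066. Within a group, a chi-square test of the counts gave 5.93 to 14.5 per degree of freedom, so samples differed by more than counting noise. This does not settle whether they came from separate cultures. The fit relative to the shared shift replaced the library sizes by the mean log2 CPM of the 36 members. Both fits were tested on simulated data with known changes, in which the fit relative to the shared shift also called some members that had not departed from it.

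The members and all gene lists were chosen with earlier results of these data known. Every member is named, as is every tested gene of the lists of VEGF ligands and coreceptors, angiopoietins and TIE regulators, and apelin and adrenomedullin partners. Of the other lists at most the 4 largest increases and the 4 largest reductions among genes that passed are named. For the arterial, lymphatic, tip cell, macrophage and mural lists the genes that did not pass are named too. Alternatives were RLE factors, library size only, DESeq2 1.42.0, 3 other filters, the replicate number as a block, each sample left out, LiCl samples 1 and 3 left out together, limma 3.58.1 on log2(FPKM + 1) and log2(FPKM + 0.1), a Y-linked covariate, glmTreat, and other references for the shared shift. The fits with the within-group deviation of the members as a covariate, with the median of the members and without 4 members as the reference were chosen after the data were seen.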

Additional observations from a re-analysis of the deposited data

How the results depend on the processing

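Across the alternatives, the log2 fold changes of the 36 members gave 620 values on the same side of the threshold, 41 that lost it, 21 that gained it and 0 that turned their sign as called genes. The main counts of 3 higher and 13 lower members became 1 and 8 with limma on log2(FPKM + 1) without filter, and 1 and 8 without LiCl samples 1 and 3, a fit with 1 treated sample that is assumed to vary like the controls. With each sample left out in turn, they ran from 2 to 4 higher and from 8 to 15 lower, and the median log2 fold change from -0.26 to -0.075. Beyond 2-fold, the counts of 2 higher and 2 lower became 1 and 1 with limma on log2(FPKM + 1), with or without filter, and with glmTreat, 1 higher without LiCl samples 1 and 3, and 1 to 2 in each direction with one sample left out. Over all tested genes, 3844 higher and 4071 lower became 2014 and 2117 without LiCl samples 1 and 3. The counts relative to the shared shift, 4 and 4, became 17 and 2 with the mean of the other endothelial genes as the reference, 10 and 7 with the within-group deviation as a covariate, and 2 to 4 in each direction with one sample left out. With the other endothelial genes as the reference, *Egfl7* turned to 0.29. Without LiCl samples 1 and 3, the muscle genes *Mylpf* (-0.29), *Myog* (-0.85) and *Smyd1* (-0.65) turned sign, since those samples held most of their counts. Over all alternatives, reduced genes numbered 10 to 21 among the other endothelial genes, 3 to 7 among the angiopoietins and TIE regulators and 5 to 9 among the arterial markers. The causes of these changes were otherwise not tested. Depth limits low genes such as *Vwf*, *Lyve1*, *Angpt4* and *Exoc3l2*.

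Over all genes, same-numbered samples of both groups did not deviate together (correlations of 0.04, -0.08 and 0.10), so a shared number was not taken as a pairing, although the members were high in the third sample of both groups. With the replicate number as a block, 3 members were higher and 15 lower, since *Kdr*, *Cdh5* and *Fli1* passed and *Clec14a* did not. Relative to the shared shift, 9 were higher and 6 lower with this block. The median log2 fold change was -0.19, and 3379 genes were higher and 3602 lower over all.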

Other observations

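Cells that surround vessels were represented by 14 listed mural genes, of which 12 were tested. After LiCl, 6 were lower (50%), 2 higher (16.7%) and 4 did not pass (median -0.29, edgeR's quasi-likelihood test). The shares over all tested genes were 22.4% lower and 21.1% higher. The 4 were *Cspg4* (0.11 ± 0.08, adjusted p = 0.3), *Ndufa4l2* (-0.34 ± 0.15, adjusted p = 0.09), *Kcnj8* (-0.18 ± 0.21, adjusted p = 0.52) and *Des* (-0.08 ± 0.17, adjusted p = 0.74). *Pdgfrb*, which encodes the PDGF receptor of pericytes and of much of the ureteric mesenchyme, fell from 168, 149 and 160 CPM to 75.6, 85.9 and 83.5 CPM (-0.96 ± 0.06, adjusted p = 6.6e-06). *Anpep*, an aminopeptidase of pericytes, fell from 42.9, 39.3 and 40.2 CPM to 19.4, 22 and 20.3 CPM (-0.99 ± 0.07, adjusted p = 6.5e-06). The pericyte regulator gene *Rgs5* fell from 221, 261 and 242 CPM to 132, 152 and 155 CPM (-0.72 ± 0.08, adjusted p = 0.00011). These groups were far apart in all 3 genes. *Abcc9* was lower (-0.65 ± 0.21, adjusted p = 0.031) but not without control sample 1 or 3 or LiCl sample 1 (adjusted p up to 0.11). *Cox4i2* was higher (0.71 ± 0.17, adjusted p = 0.0089), and so was *Notch3* (0.19 ± 0.06, adjusted p = 0.03), the latter not without control sample 2 or LiCl sample 2 or 3 (adjusted p up to 0.091).

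Genes of macrophages and blood cells went in more than one direction. Over all tested genes, 21.1% were higher and 22.4% lower. Of 19 tested macrophage genes, 11 were lower (57.9%) and 1 was higher (median -0.57), and 6 were lower without control sample 3. The 7 that did not pass were *Csf1r* (0.02 ± 0.17, adjusted p = 0.95), *Lyz2* (0.11 ± 0.13, adjusted p = 0.52), *F13a1* (0.17 ± 0.39), *Spi1* (-0.21 ± 0.18), *C1qa* (-0.47 ± 0.22), *Mrc1* (-0.48 ± 0.26) and *Fcer1g* (-0.55 ± 0.28). Of those that passed, *Fcgr1* was reduced from 1.22, 1.64 and 1.86 CPM to 0.225, 0.215 and 0.355 CPM (-2.56 ± 0.32, adjusted p = 0.00025). *Cx3cr1* was reduced by -1.24 ± 0.25 (adjusted p = 0.0032) and *Aif1* by -0.91 ± 0.23 (adjusted p = 0.01). *Adgre1*, which encodes the macrophage antigen F4/80, was increased from 5.60, 8.95 and 8.52 CPM to 9.98, 11.6 and 13.1 CPM (0.58 ± 0.18, adjusted p = 0.024), a call that was lost without LiCl sample 3 (adjusted p = 0.091). Of 12 tested erythroid genes, 4 were higher and 8 did not pass, and their summed expression was 604, 815 and 775 CPM in control and 781, 1131 and 1125 CPM after LiCl, so the groups overlapped. The 4 were *Hbb-bh1*, *Hbb-bs*, *Hba-a1* and *Tfrc*, of which *Hbb-bh1* and *Hba-a1* each lost the call without control sample 1 or 3 or LiCl sample 2 or 3, and *Hba-a1* also without control sample 2 (adjusted p up to 0.11). Globin genes have near-identical copies, so their counts are uncertain. *Pf4*, which encodes a chemokine of megakaryocytes and some tissue macrophages, was increased from 0.556, 0.934 and 1.04 CPM to 6.63, 5.26 and 7.98 CPM (2.96 ± 0.25, adjusted p = 2.4e-05), and *Ppbp* from at most 0.62 CPM to at least 0.998 CPM (1.28 ± 0.31, adjusted p = 0.0095). *Itgb3* was reduced (-0.54 ± 0.14, adjusted p = 0.012), but not without control sample 3 (adjusted p = 0.051). Of 9 genes of kidney nephron progenitors, 1 was higher and 4 were lower, and 2 were lower without LiCl sample 3, where *Pax8* and *Eya1* missed the threshold.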
